A study of Drosophila melanogaster with 4 samples.

Results

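Broad H3K36me3 domains were the enriched clusters of the combined list that spanned 14 kb (14000 bp) or more. Of the 4026 enriched clusters in that list, 290 met the limit, which is 7.2% of them. The domains were chosen by their width in the combined list, a measured value, so their number, their widths and their share of marked bases are given as descriptions with no test.

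The clusters come from ChIP-seq, chromatin immunoprecipitation followed by sequencing, on nuclei of Drosophila melanogaster heads. The flies were Oregon-R, a laboratory strain of wild-type genotype, the stage is labelled mixed adult, and no transgene, mutant allele or treatment is named for any library. A library was made from precipitated chromatin and from input chromatin in each of 2 replicates, and the authors deposited a cluster list for replicate 1, for replicate 2 and for the replicate set, called the combined list here. Nothing in the labels says that the replicates came from separate fly collections, so an SD with n = 2 measures the spread between these libraries and may be technical.

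Trimethylation of lysine 36 on histone H3 is laid down in Drosophila mainly by the enzyme Set2, which travels with elongating RNA polymerase II. The mark therefore lies over the bodies of transcribed genes, usually more towards the 3′ part. Among its known readers are Msl3, a subunit of the dosage compensation complex that acts on the X of males, and the related protein MRG15. A head holds neurons, glia, photoreceptors, fat body, muscle and cuticle cells, and a cluster in such a mixture can arise from any of them.

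The lists use release 5 coordinates of the fly genome and give a first and last base and an enrichment score for each cluster. The score is the authors' own value, and the sources used here do not give its scale. Read depth is unknown from these lists. The gene table used here is on release 6, coordinates were not converted, and no domain was assigned to a gene or printed as sequence.

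The broad domains held a larger part of the marked bases than of the clusters. Their summed width was 5.47 Mb of 25.7 Mb, or 21.3% of all marked bases from 7.20% of the clusters. The same width limit gave 259 clusters with 19.6% of the marked bases in replicate 1 and 256 clusters with 19.2% in replicate 2, a mean of 19.4% ± 0.249 (SD, n = 2). The combined list thus had more broad clusters and more marked sequence in them than either replicate alone. Broad domains covered 4.55% of the 5 long arms and chromosome 4 in the combined list, and 3.93% ± 0.0444 (SD, n = 2) in the replicates.

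Widths fell off smoothly past the limit. The median domain was 17.1 kb wide, with quartiles at 15.5 kb and 20.5 kb and a range from 14017 bp to 43.1 kb. Of the 290 domains, 98 were narrower than 16 kb, 109 were from 16 kb to under 20 kb, 72 from 20 kb to under 30 kb, and 11 were 30 kb or wider. The 10 widest together made up 354 kb, or 1.38% of the marked bases, so the share held by broad domains came from many domains of moderate width. The widest 979 clusters, 24.3% of the list, held 50% of the marked bases.

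The limit of 14 kb cut through a continuous range. Just inside it lay 2L 6942708 to 6956724 (14017 bp, score 1.95), 3L 5764120 to 5778166 (14047 bp, score 2.06) and 3R 2472190 to 2486252 (14063 bp, score 2.28). Just outside lay X 1346514 to 1360512 (13999 bp, score 1.97), 2R 3269428 to 3283426 (13999 bp, score 2.01) and 3R 20353268 to 20367260 (13993 bp, score 1.65).

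**Figure D1:**
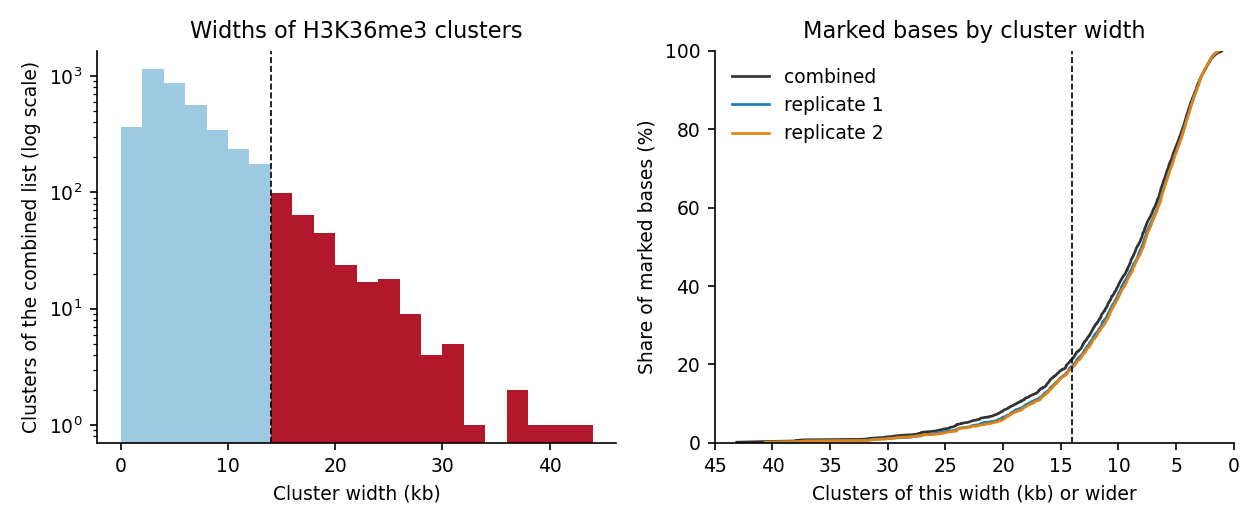
Left, number of clusters in the combined list (log scale) by width in bins of 2 kb, with the domains of 14 kb or wider in red. Right, the share of marked bases held by clusters of a given width or wider, for the combined list and both replicates. The dashed line marks 14 kb, where the combined list stands at 21.3% and the replicates at 19.6% and 19.2%.

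The widest domains were nearly whole in both replicates, and 4 of the first 10 were divided by short gaps in a replicate. The widest of all, X 15607346 to 15650448 (43.1 kb), was 3 clusters of replicate 1 and 2 of replicate 2. In replicate 1 these were 25.9 kb, 1.51 kb and 15.3 kb wide with gaps of 100 bp and 144 bp, and the middle piece scored 0.607 against 2.43 and 2.10 for its flanks. In replicate 2 the pieces were 27.6 kb and 15.2 kb with a gap of 223 bp, and this gap overlapped the second gap of replicate 1.

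The next, X 1750640 to 1791386 (40.7 kb), was the widest domain that was a single cluster in each replicate, at 40.6 kb in both lists. The third, X 6699188 to 6737268 (38.1 kb), was 2 clusters of replicate 1 and 3 of replicate 2. A gap about 25% of the way along it was present in both, of 724 bp in replicate 1 and 656 bp in replicate 2. A second gap of 74 bp was present in replicate 2 alone.

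The domain 2L 8043382 to 8081330 (37.9 kb) was a single cluster in each replicate and scored 2.45 ± 0.0279 (SD, n = 2). It ended 3 bp from its left neighbour, the smallest gap beside a broad domain of the combined list, shared with X 6572754 to 6588736. The domain 3R 7032184 to 7069390 (37.2 kb) was likewise a single cluster in each replicate, with a lower score of 1.92 ± 0.00115 (SD, n = 2) and a neighbour 223 bp to its right.

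The remaining members of the first 10 were 30.3 to 32.2 kb wide. The domains 3R 11168672 to 11200416 (31.7 kb), X 8972010 to 9003578 (31.6 kb) and 3R 6137124 to 6167398 (30.3 kb) were each 1 cluster in both replicates. The domain 2L 13363242 to 13395464 (32.2 kb) was 1 cluster in replicate 1 and 2 in replicate 2, of 15.2 kb and 16.8 kb, with a gap of 102 bp. The domain 3R 20456950 to 20487946 (31.0 kb) was 1 cluster in replicate 2 and 2 in replicate 1, of 19.1 kb and 11.2 kb, with a gap of 597 bp.

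**Figure D2:**
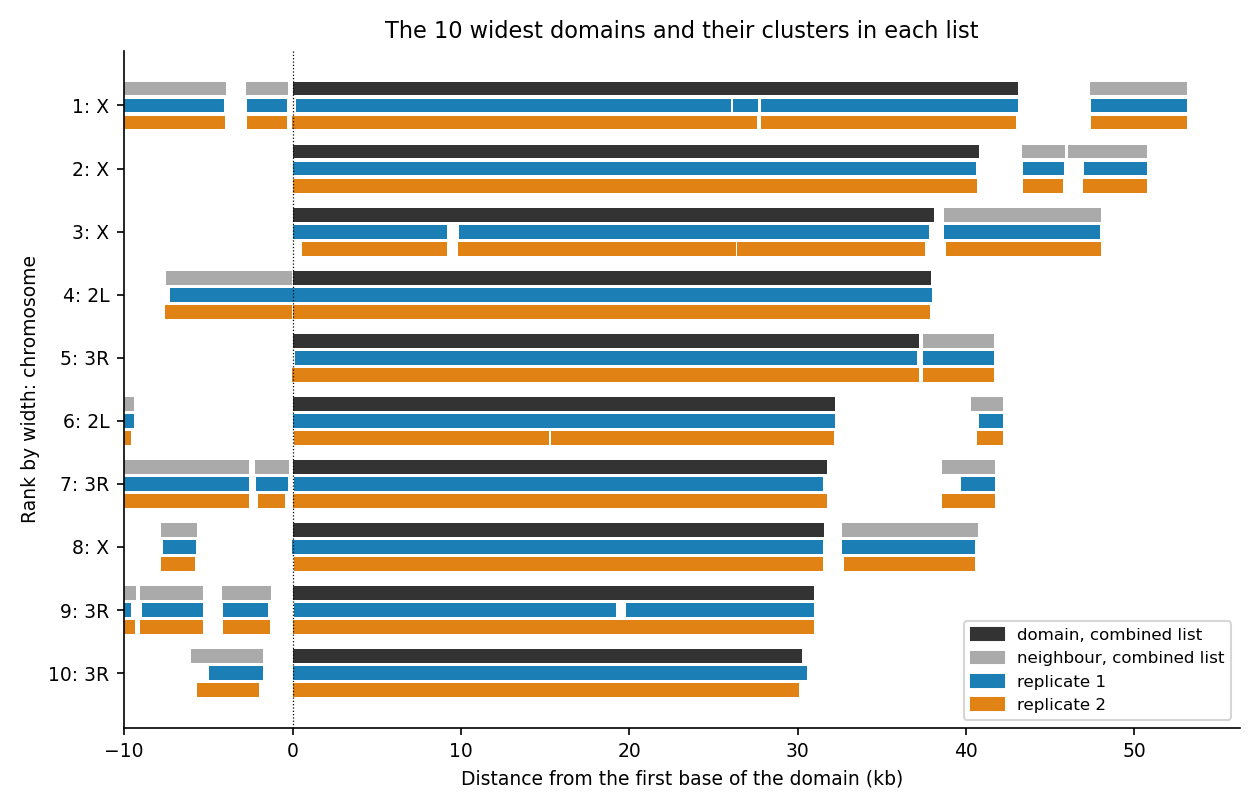
The 10 widest domains of the combined list, aligned at their first base, with the clusters of each list drawn to scale within 10 kb of the domain (x axis, distance in kb). Domains ranked 1, 3, 6 and 9 show an inner gap in a replicate, and the domain ranked 4 meets its left neighbour with a gap of 3 bp.

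Most broad domains were a single cluster in both replicates, and they were split more often than clusters of the list at large. Counting any overlap of at least 1 bp, 244 of 290 were 1 cluster of replicate 1, 41 were 2 and 5 were 3. In replicate 2 the counts were 240, 43 and 7. Split domains thus made up 15.9% in replicate 1 and 17.2% in replicate 2, against 4.25% and 4.22% of all 4026 clusters. No broad domain was without a cluster in either replicate, but the combined list that defined them is of these same libraries.

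Taking both replicates together, 223 domains (76.9%) were a single cluster in both, against 84.6% of all clusters, many of which had none in a replicate. The other 67 (23.1%) were several clusters in at least 1 replicate, against 6.31% of all clusters. Of these 67, 29 were split in both replicates, 17 in replicate 1 alone and 21 in replicate 2 alone.

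Splitting went with width, and a longer cluster has more places to be split. Several clusters in replicate 1 were found for 3.45% of those 4 to 8 kb wide, 9.37% of those from 8 to 14 kb, 12.1% of those from 14 to 20 kb and 25.3% of those 20 kb or wider. In replicate 2 the shares were 2.21%, 10.6%, 13.0% and 27.7%. Per length the rise was smaller. Inner gaps in the 2 replicates numbered 6.19 and 4.00 per Mb for clusters of 4 to 8 kb and 9.07 and 10.6 per Mb for those of 8 to 14 kb. Domains of 14 to 20 kb had 8.24 and 9.13 per Mb and wider ones 11.1 and 12.5 per Mb. By length, domains of 14 to 20 kb were therefore no more divided than clusters of 8 to 14 kb in these lists.

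**Figure D3:**
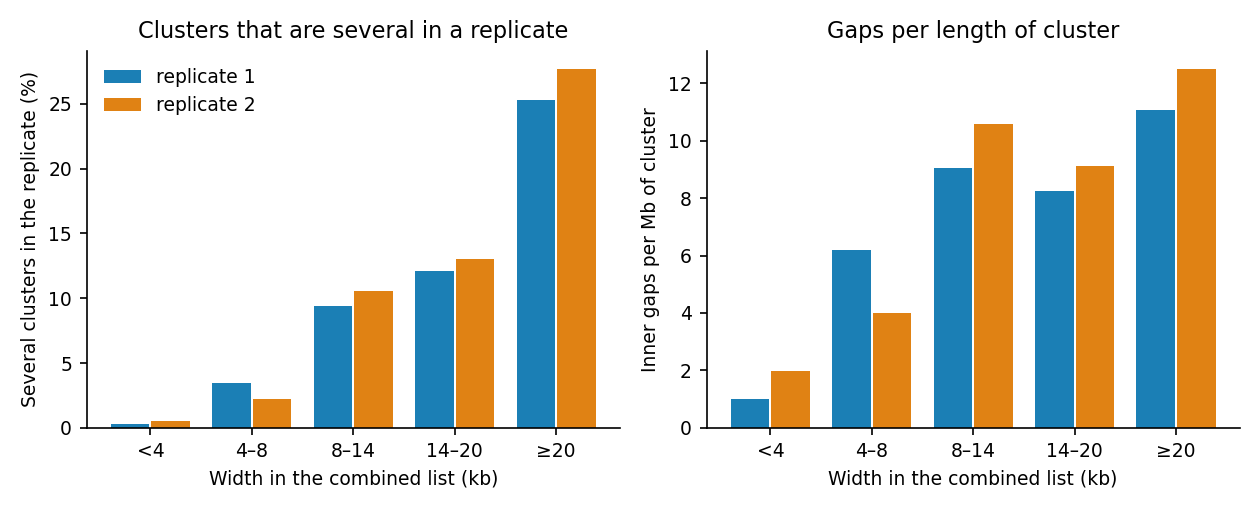
Left, share of combined-list clusters that are several clusters in a replicate, by width class. Right, number of inner gaps per Mb of cluster in the same classes. Bars are single values for replicate 1 (blue) and replicate 2 (orange). The left panel rises to 25.3% and 27.7% at 20 kb or wider, and the right panel is flatter from 8 kb upwards.

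The gaps inside broad domains were short. Replicate 1 had 51 of them, with a median of 111 bp and a range from 0 to 1889 bp, and replicate 2 had 57, with a median of 114 bp and a range from 1 to 982 bp. A gap of 0 bp means that the pieces were listed apart although no base lay between them. Gaps over 500 bp numbered 12 in replicate 1 and 4 in replicate 2. Of all 51 and 57 gaps, 26 in each replicate overlapped a gap of the other replicate, and 32 in each had their centre within 500 bp of one. The remaining gaps had no counterpart that near in the other library.

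The pieces beside the longest gaps scored alike in some domains and differently in others. Replicate 1 divided 3L 23307426 to 23324494 (17.1 kb) into pieces of 5.91 kb, 5.07 kb and 1.81 kb with gaps of 1889 bp and 1206 bp, and the pieces scored 1.68, 0.931 and 0.530 from left to right. Replicate 2 had 3 pieces as well, scoring 1.60, 1.07 and 0.613, but with gaps of 282 bp and 54 bp. This was the least covered domain, with 74.9% of its length in replicate 1 clusters and 96.9% in replicate 2, and the only one under 80% in either replicate.

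In 3R 2271696 to 2285812 a gap of 1284 bp set a 2.57 kb piece scoring 0.885 apart from a 10.1 kb piece scoring 2.14 in replicate 1. Replicate 2 showed no gap near that place. In 2R 8502990 to 8520144 a gap of 1025 bp was likewise seen in replicate 1 alone, between pieces scoring 1.48 and 1.88. By contrast, X 1804272 to 1825512 had a gap in both replicates, of 696 bp and 982 bp, and its left piece scored lower in both, 1.62 against 2.39 in replicate 1 and 1.44 against 2.33 in replicate 2. In 2L 15249088 to 15271700 the gaps were 885 bp and 797 bp, and again the left piece scored lower in both. The gaps of 724 bp and 656 bp in X 6699188 to 6737268 lay between pieces of like score, 2.24 and 2.32 in replicate 1 and 2.20 and 2.25 in replicate 2.

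Domains of 3 clusters in both replicates numbered 3, and at each of them the 2 libraries placed the divisions alike. One was the 3L domain above. In 3R 20639372 to 20657580 the gaps were 49 bp and 429 bp in replicate 1 and 60 bp and 310 bp in replicate 2, and the middle piece scored highest in both, 2.13 and 2.12 against 1.32 to 1.59 for its flanks. In 2L 6033522 to 6054384 the gaps were 646 bp and 97 bp in replicate 1 and 234 bp and 58 bp in replicate 2. Domains of 3 clusters in a single replicate, beside the X domains described above, were 2R 10034680 to 10061736, 3R 20757104 to 20774670 and X 2490516 to 2505038 in replicate 2 and 2R 486214 to 502528 in replicate 1. Across all split domains the highest and lowest scoring pieces differed by a median of 0.418 in replicate 1 and 0.408 in replicate 2.

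Almost the whole length of the broad domains was marked in each replicate. The combined list is of the same libraries, so this coverage is not independent replication of the domains. Clusters of replicate 1 covered 98.9% of their summed length and those of replicate 2 covered 98.8%, leaving 1.15% ± 0.00601 (SD, n = 2) uncovered. For narrower clusters as a whole 6.30% ± 0.224 (SD, n = 2) was uncovered, but for those of 8 to 14 kb 2.34% ± 0.136 (SD, n = 2). Clusters under 4 kb stood at 18.2% ± 1.51 (SD, n = 2), and 303 of them had no cluster in replicate 1 and 273 none in replicate 2. Inner gaps made up 0.270% and 0.195% of the length of the broad domains, and the rest of their uncovered length lay at the ends. At least 95% of the length was covered in 280 domains by replicate 1 and in 282 by replicate 2.

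The ends of the domains lay close together in the replicates. Among the 223 domains that were single clusters in both, the median difference was 57 bp at the start and 59 bp at the end, against 64 bp and 65 bp for 3181 narrower clusters. Starts were within 200 bp of each other in 208 of the 223 domains and ends in 196. Among the 3181 narrower clusters this held for 2692 starts and 2738 ends. A start differed by over 1 kb in 1 domain and an end in 1 domain, with largest differences of 3056 bp and 2068 bp. Among the narrower clusters 43 starts and 40 ends differed by over 1 kb.

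The width itself held less often than the presence of the mark. A single cluster of 14 kb or more was present in both replicates for 243 domains (83.8%), in replicate 1 alone for 12 and in replicate 2 alone for 11. For 24 domains no replicate cluster reached 14 kb. Of these, 20 were split in a replicate, and 4 were whole but up to 14.2 kb wide in the combined list, just over the limit.

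In the other direction, 256 of 259 broad clusters of replicate 1 and all 256 of replicate 2 overlapped a broad domain. The 3 exceptions were 2L 6057706 to 6074813 (17108 bp), 3L 8109725 to 8130781 (21057 bp) and X 2511130 to 2528390 (17261 bp). Each was 2 clusters of the combined list, the wider of them 13695 bp, 11681 bp and 9919 bp. A replicate cluster that reached from a broad domain into its neighbour was rare, with 1 such domain in replicate 1 and 2 in replicate 2.

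Broad domains lay on all 5 long arms and on chromosome 4. There were 71 on 3R, 59 on 2R, 51 on 3L, 49 on 2L, 47 on X and 13 on chromosome 4. U, the collection of unplaced scaffolds, and the 6 sequences of assembled heterochromatin had none, in 49 and 76 clusters, and their widest clusters were 8.26 kb and 12.1 kb. The widest domain of 3L was 1289800 to 1319432 (29.6 kb), a single cluster in both replicates, and that of 2R was 4771026 to 4801242 (30.2 kb), which was 2 clusters of replicate 1. On the long arms the share of clusters that were broad ran from 6.29% on X to 8.00% on 3R in the combined list.

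In the replicate lists the share was 6.19% ± 0.0241 on X, 6.62% ± 0.205 on 2L, 7.08% ± 0.0722 on 2R, 6.16% ± 0.489 on 3L and 6.79% ± 0.0752 on 3R (SD, n = 2 each). X therefore lay between 3L and 2L, and its difference from 3L was within the spread of the replicates, while 2R exceeded X by more than their spread. That spread measures how alike the 2 lists are, and differences between arms were not tested. By density 2R led the arms, with 2.55 broad clusters per Mb in each replicate against 1.83 ± 0.115 (SD, n = 2) on 3L.

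Chromosome 4, a short chromosome of mostly heterochromatic character that carries active genes, was the densest in broad domains. Its 13 domains were 15.9% of its 82 clusters, against 7.25% on the long arms, and in the replicates the share was 14.7% ± 1.03 against 6.58% ± 0.123 (SD, n = 2 each). This made 8.51 ± 0.523 broad clusters per Mb against 2.07 ± 0.0238 on the long arms (SD, n = 2 each). Broad domains held 36.4% of its marked bases and covered 18.0% of its sequence in the combined list, against 21.2% and 4.40% on the long arms. The differences exceeded the spread between the replicates, which measures how alike the 2 lists are. With lists of a single condition the differences were not tested.

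The 13 domains of chromosome 4 were spread over 1.14 Mb, from 127110 to 1262614, with a median of 67.9 kb between successive ones. They ran from 14.1 kb to 26.2 kb in width, and the widest was at 887884 to 914040. In the combined list 11 of the 13 scored under the median of all broad domains, with a range from 1.41 to 2.19. Narrower clusters of chromosome 4 found in both replicates had median scores of 1.51 in replicate 1 and 1.59 in replicate 2. On the long arms these medians ran from 1.62 to 1.72 in replicate 1 and from 1.61 to 1.68 in replicate 2. Lower scores on chromosome 4 were thus not particular to its broad domains. Of the 13, 11 were single clusters in both replicates, and the other 2 were split in replicate 1 alone.

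**Figure D4:**
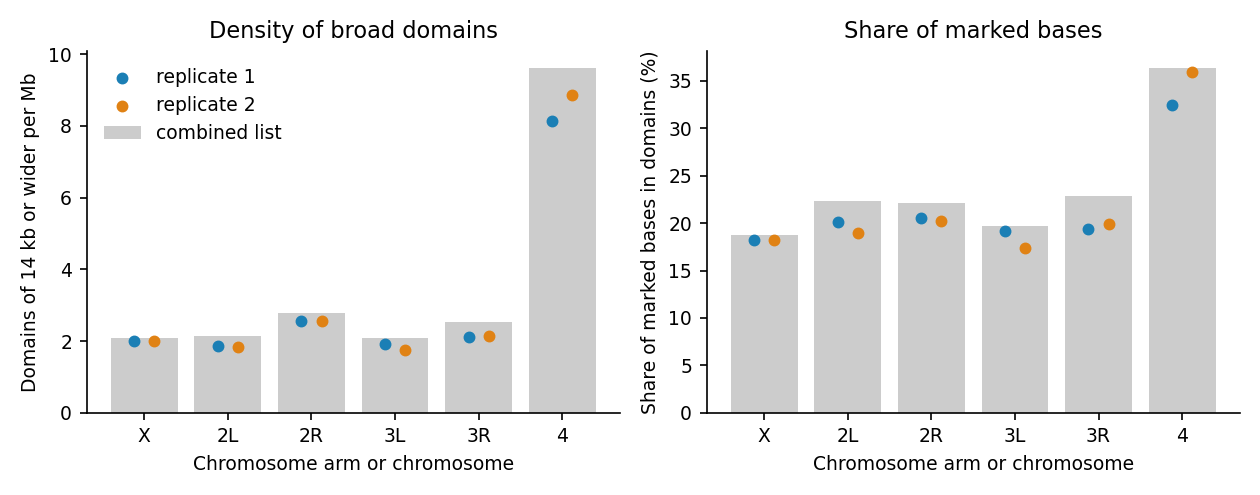
Number of clusters of 14 kb or wider per Mb (left) and their share of the marked bases (right) on each long arm and chromosome 4. Grey bars are the combined list and points are the replicates. Chromosome 4 stands at 9.62 per Mb and 36.4%, and the long arms lie between 2.08 and 2.79 per Mb and between 18.8% and 22.9%.

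Along the arms the domains were unevenly placed. In 119 windows of 1 Mb the median was 2 domains and the highest count 9. No domain lay in 17 windows, 1 in 28, 2 or 3 in 48, 4 or 5 in 21, and 6 or more in 5. The densest window was 3R from 20 to 21 Mb, with 9 domains over 178 kb and 7 broad clusters in each replicate. The next were 3L from 19 to 20 Mb and 3R from 5 to 6 Mb with 7 each. Then came 3R from 1 to 2 Mb and from 25 to 26 Mb with 6 each. In this order the 5 windows held 44, 34, 50, 40 and 33 clusters of any width. Clusters of any width varied too, with 8 in 3L from 10 to 11 Mb and 54 in X from 11 to 12 Mb. Of these 5 windows 4 were on 3R, the longest arm, which held 24.5% of all broad domains. The placement was not tested.

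The longest stretch between successive domains was on X, from 9576423 to 13179789 (3.60 Mb). It was not poor in clusters, with 136 clusters at 37.7 per Mb against 33.3 per Mb for all of X, and 20.4% of it was marked. Their median width was 4.56 kb against 5.13 kb on X as a whole, and the widest reached 13.9 kb, just under the limit. The replicates held 133 and 132 clusters there and no cluster of 14 kb or more in either, with widest clusters of 13.9 kb and 13.8 kb.

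The longest stretches of the other arms had fewer clusters than their arms. They were 3L 9890885 to 12509335 (2.62 Mb, 26.4 clusters per Mb against 30.4), 3R 12480665 to 15054677 (2.57 Mb, 29.1 against 31.8), 2R 1220681 to 3387785 (2.17 Mb, 32.8 against 37.3) and 2L 16918221 to 18695707 (1.78 Mb, 15.2 against 28.2). With X cut into 5 equal parts, counted from its first base, broad domains were 15 of 126, 7 of 147, 5 of 173, 10 of 180 and 10 of 121 clusters. The first part thus had the highest share, 11.9%, and the middle one the lowest, 2.89%. The other arms did not all follow this order. The middle part had the lowest share on 3L (4.20%) and 3R (3.43%) but the highest on 2L (10.1%), and on 2R the lowest was the first part (5.44%).

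The neighbours of broad domains resembled those of other clusters. The median gap to the next cluster on either side was 5.04 kb beside a broad domain and 5.85 kb beside a narrower cluster of the long arms and chromosome 4. In the replicates the medians were 4.63 kb and 4.94 kb beside clusters of 14 kb or more, and 6.06 kb and 6.03 kb beside narrower ones. The upper quartile was 16.2 kb against 22.6 kb in the combined list, so the longer gaps were shorter beside broad domains. Clusters of 8 to 14 kb had a like median of 5.09 kb, with an upper quartile of 21.1 kb. Beside domains of 20 kb or wider the median was longer, at 7.29 kb. No test was made of these gaps.

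Short gaps were as common beside broad domains as elsewhere. A neighbour lay within 500 bp of 67 domains (23.1%), against 22.9% of all clusters on the same chromosomes, a share near the background. Within 100 bp there was a neighbour for 20 domains (6.90%), against 7.06% of narrower clusters. The nearest neighbour was over 10 kb away for 46 domains (15.9%), against 16.6% of narrower clusters.

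Neighbouring clusters were of ordinary width. Their median was 5.30 kb beside a broad domain and 5.05 kb beside a narrower cluster, and 7.93% of the neighbours of broad domains were broad themselves, against 7.41%. Neighbours narrower than 4 kb made up 35.0%, against 36.9%. Their median score was 1.66 against 1.61, below the median of 2.10 of the broad domains themselves.

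**Figure D5:**
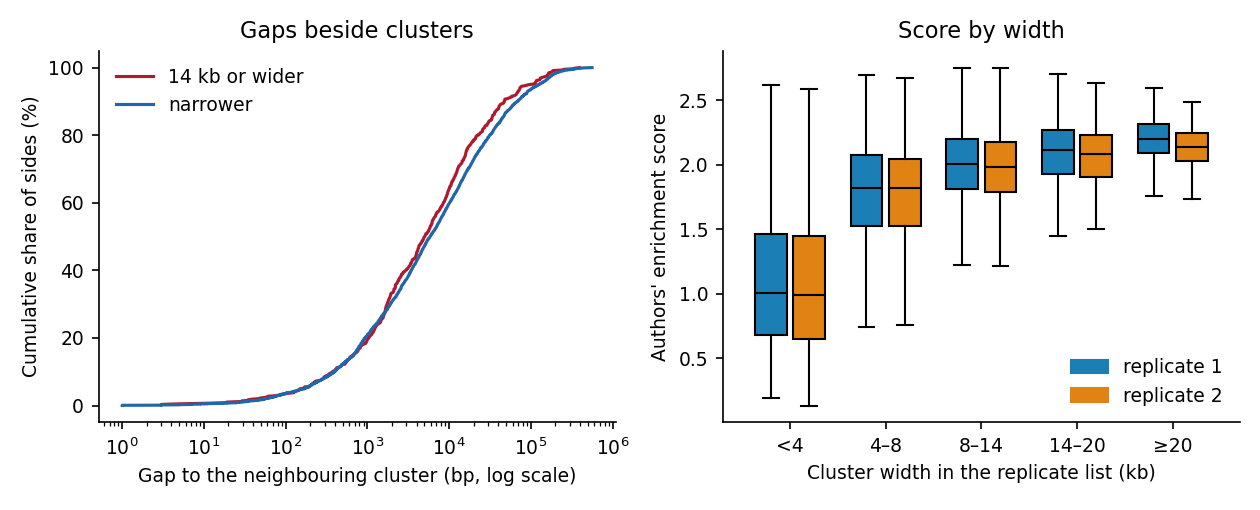
Left, cumulative share of gaps to the next cluster on either side (x axis, bp on a log scale) for clusters of 14 kb or wider (red) and narrower ones (blue) of the combined list. Right, the authors' enrichment score by cluster width in each replicate, as median, quartiles and whiskers to the last value within 1.5 interquartile ranges. The curves lie together up to about 1 kb, and the scores level off past 14 kb.

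Most broad domains stood alone, and a few lay side by side. Of 290, 246 had no broad domain as direct neighbour, 19 pairs were direct neighbours, and 2 runs held 3 domains each. The runs were 3L 181094 to 246938 (65.8 kb, of which 60.4 kb marked) and 3R 25548676 to 25642408 (93.7 kb, of which 57.0 kb marked). Successive domains of a chromosome were a median of 194 kb apart, with 22 of 284 distances at 10 kb or less and 29 over 1 Mb.

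The closest pairs were kept apart in both replicates. The closest was 3R 11034722 to 11050980 and 11051106 to 11068112, 125 bp apart, followed by a 2R pair at 4982638 to 4997574 and 4997722 to 5016982, 147 bp apart. Next came 3L 181094 to 199554 and 199774 to 219772, 219 bp apart, within the run named above. Each of these 3 pairs was 2 clusters in either replicate, and the gap between them lay within 50 bp of its place in the combined list. It measured 167 bp and 221 bp in the replicates for the 3R pair, 163 bp and 251 bp for the 2R pair, and 245 bp and 349 bp for the 3L pair, wider than in the combined list each time. The fourth, 3L 15947714 to 15969804 and 15970218 to 15989272, was 413 bp apart. The last of the 5 closest, 2R 4771026 to 4801242 and 4801856 to 4822004, was 613 bp apart, and each of these latter pairs had a further division in 1 replicate.

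If clusters of a list are joined across gaps of 500 bp or less, 394 clusters reach 14 kb in the combined list. Of these, 171 are made of several clusters and 108 contain no cluster that was broad before joining. The widest becomes 3R 11142810 to 11200416, 57.6 kb from 4 clusters, of which 1 was a broad domain. The replicates joined in the same way divide that region, into 11.4 kb and 45.4 kb in replicate 1 and 11.3 kb, 11.2 kb and 33.8 kb in replicate 2. The widest domain as deposited, on X, becomes 45.8 kb in the combined list, 42.9 kb in replicate 1 and 45.7 kb in replicate 2.

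The most isolated domain was 3R 2472190 to 2486252 (14.1 kb), with 186 kb to its left neighbour and 393 kb to its right one. It was a single cluster in both replicates, with a score of 2.29 ± 0.0576 (SD, n = 2). The next were 3L 21814588 to 21833442 (73.6 kb and 74.3 kb), X 4424916 to 4448694 (159 kb and 72.4 kb), 3R 21868882 to 21887650 (47.2 kb and 73.5 kb) and 3L 2766662 to 2793730 (42.5 kb and 161 kb), each with its left and right gap. A broad domain could thus lie in sequence with no other mark nearby, and these 5 scored between 1.84 and 2.28 in the combined list.

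Broad domains had high scores with little dependence on further width. Score and width come from the same reads, so these values are a description. The median score was 2.10 in the combined list, 2.14 in replicate 1 and 2.10 in replicate 2, against 1.94, 2.01 and 1.98 for clusters of 8 to 14 kb and 0.750, 1.01 and 0.992 for those under 4 kb. Of the 290 domains, 276 (95.2%) scored above the median of the list, which is passed by 50% of clusters. Within the broad domains Spearman's rho of width with score was 0.0793 in the combined list (n = 290), 0.131 in replicate 1 (n = 259) and 0.0547 in replicate 2 (n = 256), across clusters that share a library.

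Ranked by the combined-list score, the top broad domains lay on 3R and X. They were 3R 20060790 to 20084848 (2.68), 3R 27603402 to 27619646 (2.63) and X 15765278 to 15780438 (2.58). Their replicate means were 2.69 ± 0.0036, 2.64 ± 0.00596 and 2.59 ± 0.0451 (SD, n = 2 each), and each was a single cluster in both replicates. By the replicate mean the third place went to X 6133346 to 6147544 instead.

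The lowest by the combined-list score were 2R 486214 to 502528 (1.03), 2L 9641854 to 9657174 (1.07) and 3L 23307426 to 23324494 (1.14). Their replicate means were 1.06 ± 0.101, 1.07 ± 0.0468 and 1.22 ± 0.00436 (SD, n = 2 each). The 2R and 3L domains were split in both replicates and the 2L domain in neither. By the replicate mean the third lowest was 2L 5198488 to 5214278, which was 2 clusters of replicate 1 and 1 of replicate 2.

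Split domains were wider and scored slightly lower. The 67 that were several clusters in a replicate had a median width of 19.2 kb and median scores of 2.03 in replicate 1 and 1.99 in replicate 2. The 223 whole ones had 16.8 kb, 2.14 and 2.11. Both ranges overlapped widely, from 1.03 to 2.39 and from 1.07 to 2.68 in the combined list.

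Scores of the broad domains leaned towards replicate 1 except on chromosome 4. Where a domain was several clusters in a replicate, its score was their mean weighted by length. Replicate 1 was higher in 212 of 290 domains (73.1%), against 58.0% of the 3657 clusters found in both replicates, and the median difference was 0.0415. On X it was higher in 39 of 47 (83.0%), with medians of 2.25 in replicate 1 and 2.15 in replicate 2. On the autosomal arms it was higher in 32 of 49 on 2L (65.3%) and 46 of 59 on 2R (78.0%). It was higher in 38 of 51 on 3L (74.5%) and 55 of 71 on 3R (77.5%). Narrower clusters found in both replicates leaned the same way but less. Replicate 1 was higher in 64.7% of them on X, 53.5% on 2L, 54.7% on 2R, 53.9% on 3L and 59.1% on 3R. X thus leaned most among narrower clusters as well.

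On chromosome 4 the order was turned round. Replicate 1 was higher in 2 of the 13 domains and replicate 2 in 11, with medians of 1.86 and 1.96. The 59 narrower clusters of chromosome 4 found in both replicates leaned the same way, with replicate 1 higher in 21. The median difference, replicate 1 minus replicate 2, was -0.0750 for its domains and 0.0962 for those of X. With a single library per replicate, what separates the libraries in this way was not tested.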

How the data were processed

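H3K36me3 ChIP-seq clusters of wild-type fly heads were taken as the authors deposited them, in 3 lists on fly release 5, per the file headers. Each cluster has its first and last base and the authors' score, whose unit the files leave unnamed. Bowtie 0.12.7 is listed in the submitters' processing notes without a role. The sources used here name no caller, no threshold and no way of combining the replicates. Input libraries entered through the authors' calls alone, and depth is unknown, so no counting interval was computed.

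Rows marked as enriched were kept, and 1 region marked as depleted was left out. Width is last minus first base plus 1. Replicate clusters were assigned to a domain by an overlap of at least 1 bp, and gaps count the bases between clusters. In windows of 1 Mb a cluster counts by its midpoint, and end windows under 50% of full length were left out. Domains named by position are the 10 widest, those nearest the limit, those with most pieces or longest inner gaps, the highest and lowest scoring, the closest pairs and runs, the widest of each sequence, those under 80% covered in a replicate and the most isolated. The limit, the lists and these choices were made with earlier results of these data known. No test was run: there is 1 condition, and clusters are not replicates. Functions were tested on simulated lists. Python 3.11.15 with pandas 2.3.3 was used.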

Additional observations from a re-analysis of the deposited data

How the results depend on the processing

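There were 53 alternative values for 7 results. Of these, 19 moved by less than the SD of the replicates, or less than 1.5 times for the number of domains, and 34 moved by more. Only the excess of chromosome 4 over the long arms in the share of broad clusters could change sign, and it did so in 0 cases. All domains lie on the long arms and chromosome 4, so limiting the lists to these left most results unchanged by construction. Width limits of 12, 16 and 20 kb gave 466, 192 and 83 domains with 30.1%, 15.6% and 8.09% of the marked bases. The share of broad clusters on chromosome 4 exceeded that on the long arms at each limit. The excess was 10.2, 7.43 and 2.81 percentage points, against 8.60 at 14 kb. Fewer clusters pass a higher limit on any sequence, so the smaller difference at 20 kb is not by itself a smaller relative excess. At these limits, single clusters in both replicates were 78.8%, 71.9% and 63.9% of domains, and 1.37%, 1.21% and 1.05% of the length was uncovered. The median neighbour gap was 5.49 kb at 16 kb and 7.29 kb at 20 kb, and the median score 2.06 at 12 kb and 2.14 at 20 kb. Joining clusters across 500 bp or less in all 3 lists gave 30.3% of marked bases and 78.7% single clusters. It also gave 1.73% uncovered, a gap of 6.67 kb and a score of 2.03. No gap of 500 bp or less can remain after joining, so the neighbour gap and single clusters changed in part by construction. On the long arms and chromosome 4 alone the domains held 21.6% of the marked bases, and among the upper 50% of clusters by score 29.1%. With neighbours limited to that upper 50% the median gap was 13.5 kb.

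In the list of replicate 1 or of replicate 2 alone, the number of domains was 259 or 256 and the share of marked bases 19.6% or 19.2%. The excess of chromosome 4 was 7.26 or 8.89 points, the gap 4.63 or 4.94 kb and the score 2.14 or 2.10. The share of single clusters and the uncovered length still used the domains of the combined list, so neither replicate was left out of choosing them. Of those domains 84.1% or 82.8% were a single cluster in the 1 replicate examined, a looser measure than the 76.9% that were single in both. The uncovered length was 1.15% or 1.16%. No paired analysis was possible because the input libraries have no list here and no groups were compared. Unknown depth limits what can be said of gaps seen in 1 replicate alone.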

Other observations

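The lists differ in how positions were recorded. All 4026 starts and all 4026 ends of the combined list are even numbers, against 52.2% of starts and 49.6% of ends in replicate 1 and 49.7% and 50.4% in replicate 2. Positions of the combined list therefore have a step of at least 2 bp. The smallest gap between neighbouring clusters was 1 bp in the combined list, 0 bp in replicate 1 and 1 bp in replicate 2, so no minimum distance between clusters separated them in any of these lists.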
